A study of Mus musculus with 6 samples.

Results

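The genes described here encode the machinery of homologous recombination, the Fanconi anaemia pathway and the ATM/ATR damage checkpoint. They were taken by gene symbol from a fixed list of 38 names, and all 38 were found among the 23420 genes of the deposited count table. All 38 also passed the filter on low counts, which left 12672 genes for testing. RNA was sequenced from 6 libraries of cultured mouse epidermal keratinocytes, the epithelial cells of the skin surface. Every culture carried loxP-flanked Gata6 alleles (Gata6 fl/fl), the gene of a zinc finger transcription factor. The 3 libraries labelled WT were K14CreERT2-. The 3 labelled iKO (induced knockout) were K14CreERT2+, in which the keratin 14 promoter drives a Cre recombinase that tamoxifen activates. Both groups were at passage 8 to 10, in medium low in calcium, and were given 4-hydroxytamoxifen at 1 µM for 6 hours.

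Libraries held 21943467 to 83337263 reads assigned to genes, and the deepest in each group were WT 3 and iKO 33 (iKO 33 is named for the number in its column, which matches no iKO title). Values are CPM, the reads of a gene relative to the reads of the 12672 tested genes in its library. These library sizes were scaled by trimmed means of M-values. The labels and the targeted gene did not match: Gata6 stood at 0.519 to 5.37 CPM in the libraries labelled WT and at 14.2 to 21.02 CPM in those labelled iKO (log2 fold change 2.60, SE 0.72, adjusted p = 0.180 in edgeR and 0.00199 in DESeq2). Groups are therefore called by their labels, and each direction is that of the libraries labelled iKO against those labelled WT. Sex-linked transcripts also separated the groups, with Xist at 605 to 889 CPM in the libraries labelled WT and at most 2.62 CPM in those labelled iKO, so sex and genotype cannot be told apart. The 8 keratinocyte markers summed to 34091 to 47891 CPM in the libraries labelled WT and 36354 to 52363 CPM in those labelled iKO. Most of this sum was Krt5 and Krt14, and DESeq2 called 1 of the 8 lower and 1 higher. The groups did not overlap for Trp63 (307 to 331 CPM in the libraries labelled WT, 191 to 205 CPM in those labelled iKO) or for Cdh1 (419 to 442 against 563 to 725 CPM), and the part of these differences in the results below was not tested. Lists of fibroblast, melanocyte, immune and endothelial markers each summed to at most 19.1 CPM, with Dcn, Lum, Dct, Kit, Cd207 and Emcn at 0 in every library. The endothelial list summed to 9.87 to 19.1 CPM in the libraries labelled WT and 7.58 to 9.05 CPM in those labelled iKO, mostly from Kdr. Of its other markers, Pecam1 stood at 1.15 to 3.18 CPM and Cdh5 reached at most 0.0222 CPM. Reads that were not uniquely aligned made up 29.5% to 30.5% of all counts in the libraries labelled WT and 21.7% to 26.5% in those labelled iKO, and the part of this in the results below was not tested. Nothing in the labels ties the libraries of a group to separate cultures or mice, and p-values here reflect the spread among libraries, part of which may be technical.

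When both strands of DNA break, the MRN complex binds the ends, nucleases cut one strand back, and BRCA1, BRCA2 and their partners act on the exposed strand so that the sister chromatid can serve as template. The Fanconi pathway unhooks crosslinks between strands through a ubiquitin ligase core complex that modifies FANCD2 and FANCI. The kinases ATM and ATR sense breaks and stalled forks, and through CHK2 and CHK1 they hold the cell cycle. Many of these genes are transcribed mainly as cells enter S phase, and in proliferating epithelia such as basal keratinocytes their transcripts track with cell division.

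Most of these transcripts had somewhat lower values in the libraries labelled iKO, and none of the 38 passed edgeR's quasi-likelihood test over all genes. Of the 38 genes, 34 had a negative log2 fold change, against 48.8% of all tested genes, and the median was -0.29 against 0.0091 over all tested genes. In edgeR 0 of 38 passed an adjusted p of 0.05, where 0.11% of tested genes passed as lower and 0.229% as higher, and limma-voom also called 0. An unadjusted p under 0.05 was reached by 15 of the 38 as lower and 0 as higher, against 7.7% and 7.32% of all tested genes. DESeq2 called 4 of the 38 as lower (Chek1, Exo1, Dna2 and Rad54b) and 0 as higher, against 3.15% and 3.34% of the genes it adjusted. The authors' deposited table, made with DESeq2 from the same libraries, holds the same 4 below an adjusted p of 0.05, all lower, against 2.88% of its tested genes called lower and 3.07% called higher. Bulk RNA cannot tell fewer cells in S phase from less transcript in each cell.

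For 14 of the 38 genes every library labelled iKO lay below every library labelled WT, against 11.3% of all tested genes, and for 1 gene (Fancg) the order was the opposite, against 10.5%. Single libraries moved the count at an unadjusted p: it was 6 without WT 2, 4 without WT 4, 6 without iKO 3 and 5 without iKO 33, where the share of all tested genes was 5.68%, 6.14%, 6.1% and 5.74%. The median stayed between -0.27 and -0.40 when each library was left out in turn.

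**Figure D1:**
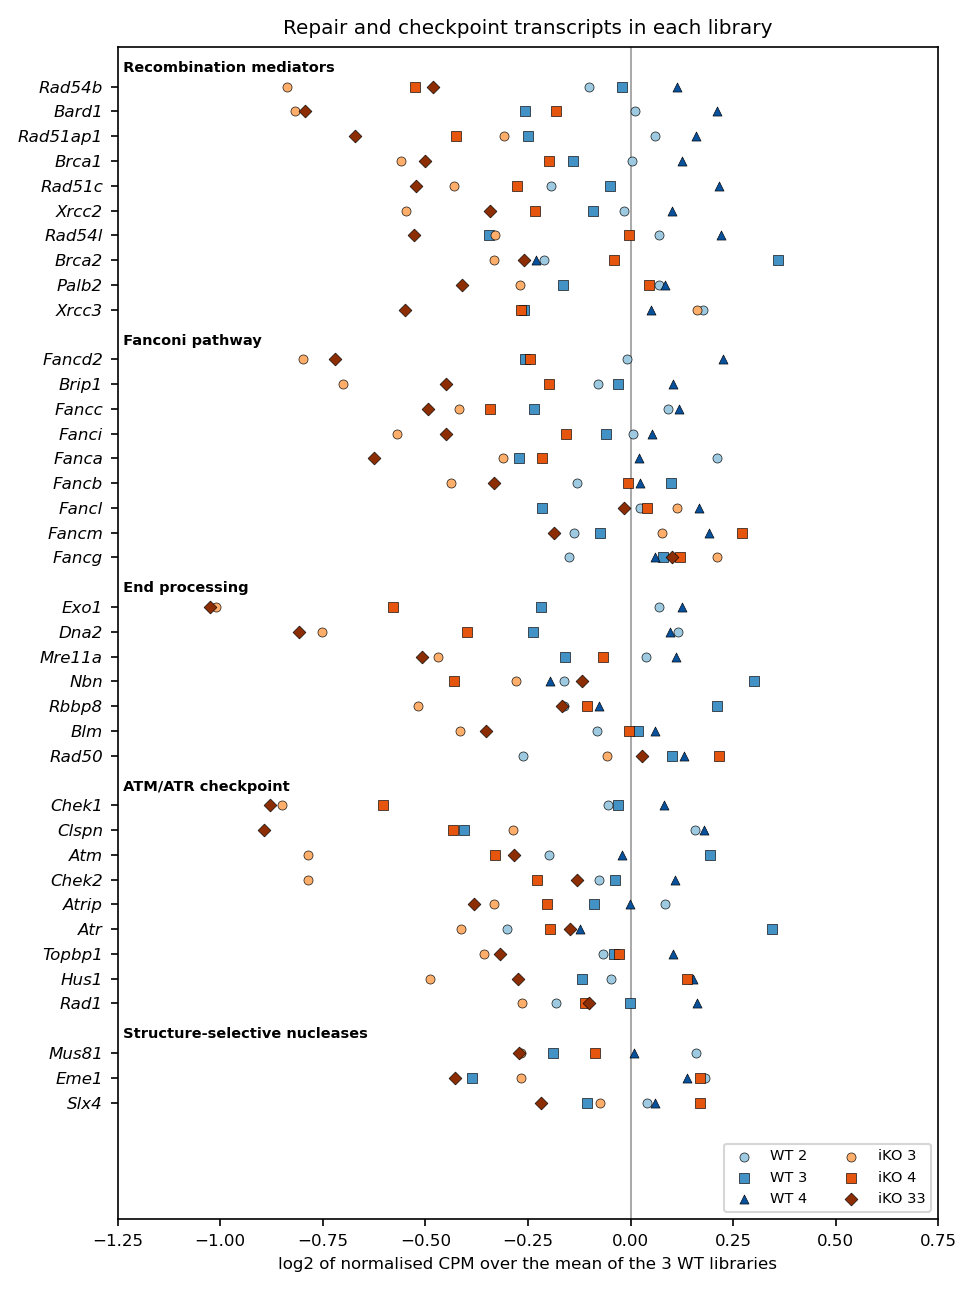
Each point is 1 library, placed by the log2 of its normalised CPM over the mean of the 3 libraries labelled WT, with the 38 genes in rows grouped by role. Points of iKO 3 and iKO 33 lie left of every WT point for 29 and 32 genes, and those of iKO 4 for 17. The share of all tested genes with this order was not counted for single libraries.

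Of the 38 genes, 31 had a promoter window in RefSeq on GRCm38.p6, in 34 windows of 250 bases before to 50 bases after an annotated start. Both strands were searched for E2F-type words (TTTCCCGC, TTTGGCGC, TTTCGCGC or TTTGCCGC), the letters to which the E2F factors of S phase entry are known to bind. A word was found in 8 of 34 windows (23.5%), belonging to 7 genes, against 3.9% of the 11945 windows of all tested genes. The 7 genes were Bard1, Brca2, Chek2, Clspn, Fancg, Rad51c and Topbp1. Their log2 fold changes had a median of -0.35 and reached from -0.57 (Bard1) to 0.14 (Fancg), and the 24 genes with a window but no word had a median of -0.26 and reached from -0.77 (Chek1) to 0.065 (Fancm). The 7 genes without a window (Rad54b, Xrcc2, Fancd2, Rad50, Nbn, Rbbp8 and Exo1) had a median of -0.37 and stand outside this comparison, among them Exo1 and Rad54b, which DESeq2 called. Some windows without a word start from a RefSeq start well inside the gene as GENCODE draws it. The distance was 407 bases for Chek1, 409 for Fanci, 949 for Fancl, 2092 for Slx4 and 65533 for Fancc. For these genes the bases before the GENCODE end were not searched. For Chek1 and Fancc a GENCODE transcript also starts at the RefSeq start. The nearest GENCODE transcript start lay 2 bases away for Slx4, 15 for Fanci and 118 for Fancl. The CHR words TTTGAA or TTCGAA, which mark late cell cycle promoters, were in 11.8% of these windows against 13.9% of all, and CCAAT was in 52.9% against 37.7%. No E2F-type word overlapped a CHR or CCAAT match in these windows. A match is a string of letters and not evidence of binding, and no match says only that these letters are not in this window.

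The 250 bases before the annotated start are shown for 2 genes, picked by their values. Brca2 has a window with a word and a small log2 fold change (-0.21). Dna2 has a window with none, and DESeq2 called it lower (-0.64). The pair does not stand for the genes with and without a word, whose medians were -0.35 and -0.26. Both stretches lie almost wholly outside annotated exons. They are written 5′ to 3′ along the gene, with the E2F-type word, which Brca2 carries on the opposite strand, in capitals. On GRCm38.p6 they lie at chr5:150522371-150522620 and chr10:62946779-62947028, both on the plus strand.
Brca2: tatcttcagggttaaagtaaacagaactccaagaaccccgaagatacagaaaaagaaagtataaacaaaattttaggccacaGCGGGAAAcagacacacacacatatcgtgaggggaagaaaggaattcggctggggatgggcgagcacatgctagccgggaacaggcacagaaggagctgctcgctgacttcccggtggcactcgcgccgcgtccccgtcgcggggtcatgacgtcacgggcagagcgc
Dna2: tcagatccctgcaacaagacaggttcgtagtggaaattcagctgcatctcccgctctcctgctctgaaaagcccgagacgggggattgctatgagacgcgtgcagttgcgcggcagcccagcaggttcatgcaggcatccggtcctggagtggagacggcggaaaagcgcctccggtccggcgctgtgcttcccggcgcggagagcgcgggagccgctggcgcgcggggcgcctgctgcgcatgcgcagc

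Every one of the 9 checkpoint genes had a negative value on the log2 scale (median -0.30). An unadjusted edgeR p under 0.05 was reached by 4, against 7.7% of all tested genes as lower. In 4 the groups did not overlap, against 11.3% of all tested genes as lower. Chek1 encodes CHK1, the effector kinase of ATR that restrains replication origins and mitotic entry. It measured 33.8, 34.4 and 37.2 CPM in WT 2, WT 3 and WT 4, against 19.5, 23.2 and 19.1 CPM in iKO 3, iKO 4 and iKO 33. The lowest WT library stood well above the highest iKO library, and the spread within each group was small. The log2 fold change was -0.77 (SE 0.13), a level 41.4% lower. The adjusted p was 0.0668 in edgeR, short of the threshold, and 3.45e-05 in DESeq2, and over the 14 alternatives it reached 0.249.

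The mediators and sensors upstream of CHK1 showed smaller differences. Clspn, the gene of claspin, which presents CHK1 to ATR, measured 70.9, 48.0 and 72.0 CPM in WT 2, WT 3 and WT 4 and 52.1, 47.1 and 34.2 CPM in iKO 3, iKO 4 and iKO 33. Here WT 3 fell among the libraries labelled iKO, and the log2 fold change was -0.52 (SE 0.22, edgeR adjusted p = 0.330). Atrip, which encodes the partner that brings ATR to single-stranded DNA, measured 23.5, 20.8 and 22.1 CPM in the libraries labelled WT and 17.6, 19.2 and 17.0 CPM in those labelled iKO, in the same order of libraries. Its groups did not overlap, with a log2 fold change of -0.30 (SE 0.12, edgeR adjusted p = 0.321). The kinase gene Atr itself stood at -0.25 (SE 0.19), and WT 3 at 58.9 CPM was far above the other 5 libraries, which lay between 34.9 and 42.6 CPM. Without WT 3 its log2 fold change was -0.039. Topbp1, the activator of ATR, had the highest level per length of the 38 genes, with 225, 229 and 253 CPM in the libraries labelled WT and 184, 231 and 189 CPM in those labelled iKO (-0.23, SE 0.13). Rad1 (-0.16, SE 0.14) and Hus1 (-0.18, SE 0.18), subunits of the clamp that is loaded at damaged DNA, overlapped between the groups.

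On the ATM side, Atm measured 57.9, 75.8 and 65.4 CPM in WT 2, WT 3 and WT 4 and 38.5, 52.8 and 54.5 CPM in iKO 3, iKO 4 and iKO 33. The groups did not overlap, although WT 2 and iKO 33 were close, and the log2 fold change was -0.45 (SE 0.17, edgeR adjusted p = 0.295). Chek2, the gene of the ATM effector kinase CHK2, measured 33.2, 34.1 and 37.7 CPM against 20.3, 29.9 and 32.0 CPM in the same order of libraries. The groups did not overlap, although WT 2 and iKO 33 were close. The difference rested in part on iKO 3, without which the log2 fold change moved from -0.35 (SE 0.18) to -0.18.

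**Figure D2:**
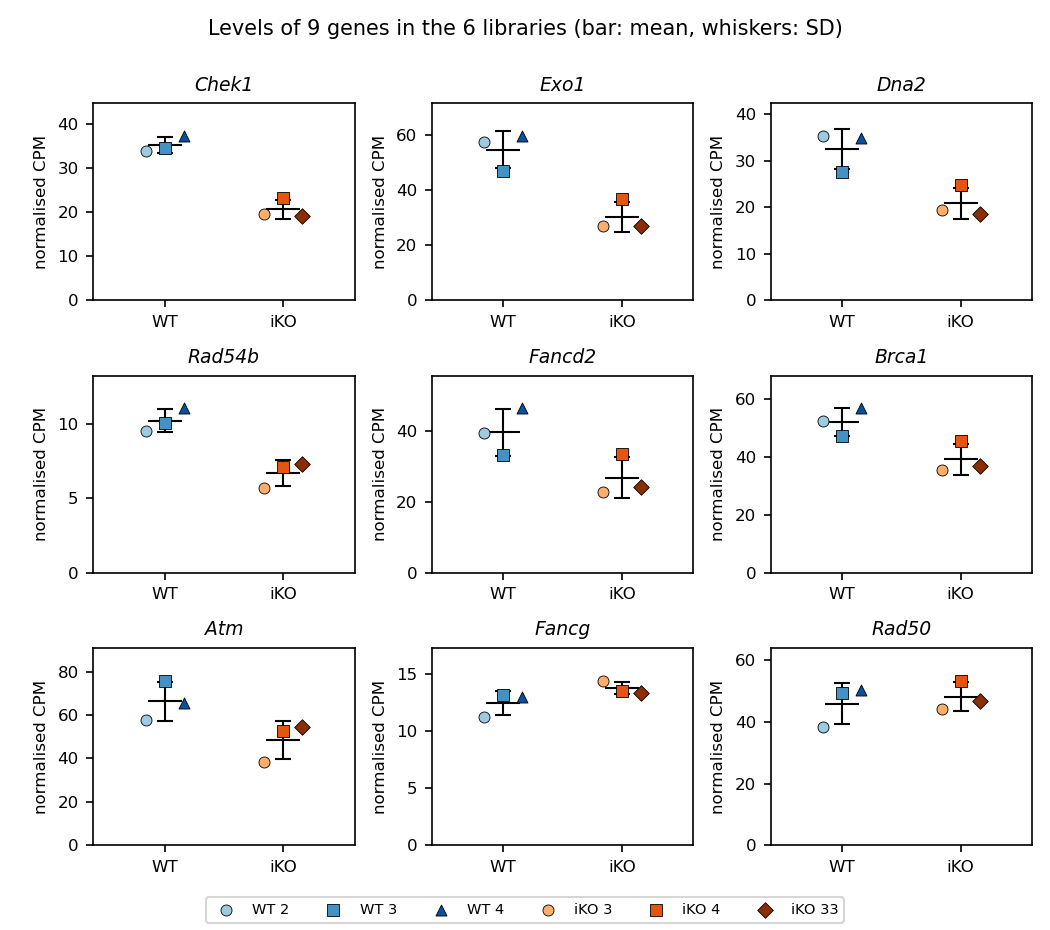
Normalised CPM of 9 genes in each of the 6 libraries, with a bar at the group mean and whiskers of 1 SD (n = 3 per group). Chek1, Exo1, Dna2, Rad54b, Brca1 and Atm separate the groups, Fancd2 touches (33.1 CPM in WT 3 and 33.4 CPM in iKO 4), Fancg is slightly higher in the libraries labelled iKO, and Rad50 overlaps.

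Among the 7 genes that recognise and resect broken ends, the most negative values were those of the long-range resection genes. Exo1, the gene of the exonuclease EXO1, measured 57.6, 47.1 and 59.8 CPM in WT 2, WT 3 and WT 4 and 27.2, 36.7 and 27.0 CPM in iKO 3, iKO 4 and iKO 33. The groups did not overlap, and iKO 4 was the closest to the libraries labelled WT. Its log2 fold change of -0.86 (SE 0.17) was the most negative of the 38 genes, a level 44.7% lower, with an adjusted p of 0.101 in edgeR and 0.000939 in DESeq2. Dna2, the nuclease and helicase gene of the parallel resection route, measured 35.3, 27.6 and 34.7 CPM against 19.3, 24.7 and 18.6 CPM in the same order. It was lower by 35.8% without overlap (log2 fold change -0.64, SE 0.17), with an adjusted p of 0.169 in edgeR and 0.0258 in DESeq2. Blm, the helicase that works with DNA2, stood at -0.25 (SE 0.14) with overlapping groups.

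The 3 genes of the MRN complex had values of both signs. Mre11a, the nuclease subunit, measured 63.3, 55.2 and 66.6 CPM in the libraries labelled WT and 44.5, 58.9 and 43.3 CPM in iKO 3, iKO 4 and iKO 33 (-0.33, SE 0.16, edgeR adjusted p = 0.374). The library iKO 4 lay inside the WT range. Rad50, the ATPase that tethers the ends, measured 38.4, 49.4 and 50.3 CPM against 44.2, 53.4 and 46.9 CPM, with full overlap and a log2 fold change of 0.065 (SE 0.15, edgeR adjusted p = 0.881). The sign of Rad50 turned to -0.051 without WT 2 and to -0.015 without iKO 4. Nbn, the gene of the subunit that recruits ATM, stood at -0.27 (SE 0.17), and Rbbp8, the gene of CtIP, which starts resection, at -0.25 (SE 0.16). Both were highest in WT 3, at 39.3 and 54.3 CPM. Rbbp8 lies on chromosome 18, 548 kb from Gata6.

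The 10 recombination genes all had negative log2 fold changes (median -0.39). Of these, 5 had an unadjusted edgeR p under 0.05 and 5 were without overlap, against 7.7% and 11.3% of all tested genes as lower. Rad54b, a DNA translocase of strand exchange, measured 9.54, 10.1 and 11.1 CPM in WT 2, WT 3 and WT 4 and 5.72, 7.11 and 7.33 CPM in iKO 3, iKO 4 and iKO 33. The groups were separate at this low level, with a log2 fold change of -0.60 (SE 0.18) and an adjusted p of 0.191 in edgeR and 0.0412 in DESeq2. Its exons share 35.8% of their bases with Fsbp on the same strand, so its count is uncertain. Brca1, which directs breaks into recombination, measured 52.3, 47.3 and 56.8 CPM against 35.4, 45.4 and 36.8 CPM in the same order. It did not overlap, but iKO 4 came close to WT 3 (-0.41, SE 0.14, edgeR adjusted p = 0.251). Its binding partner gene Bard1 showed a larger log2 fold change of -0.57 (SE 0.22) with overlap, since iKO 4 at 20.4 CPM exceeded WT 3 at 19.3 CPM. Rad51ap1, which promotes strand exchange, measured 34.1, 27.5 and 36.5 CPM against 26.4, 24.4 and 20.5 CPM, narrowly separate (-0.46, SE 0.16, edgeR adjusted p = 0.254).

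Brca2 and the gene of its partner PALB2 showed small values. Brca2 stood at -0.21 (SE 0.20), and this rested on WT 3 at 28.7 CPM, since the other 5 libraries lay between 17.7 and 21.8 CPM and the value without WT 3 was 0.015. Palb2, which links BRCA1 to BRCA2, stood at -0.20 (SE 0.17). Of the remaining recombination genes, Rad51c stood at -0.41 (SE 0.22) and Xrcc2 at -0.37 (SE 0.15), both without overlap, and Xrcc3 at -0.19 (SE 0.23) with overlap. Rad54l, the main RAD54 translocase gene, stood at -0.27 (SE 0.21).

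Of the 9 Fanconi genes 6 had a negative log2 fold change and 3 a positive one. An unadjusted edgeR p under 0.05 was reached by 4, all lower, against 7.7% of all tested genes as lower. Fancd2, the gene of a subunit that receives ubiquitin, measured 39.3, 33.1 and 46.2 CPM in WT 2, WT 3 and WT 4 and 22.7, 33.4 and 24.0 CPM in iKO 3, iKO 4 and iKO 33, with an overlap of WT 3 and iKO 4 alone (log2 fold change -0.57, SE 0.20, edgeR adjusted p = 0.255). Its partner gene Fanci measured 31.1, 29.7 and 32.1 CPM against 20.9, 27.8 and 22.7 CPM without overlap (-0.38, SE 0.14, edgeR adjusted p = 0.282). Brip1, the gene of the FANCJ helicase that binds BRCA1, measured 26.5, 27.4 and 30.1 CPM against 17.2, 24.4 and 20.5 CPM, also without overlap (-0.43, SE 0.16, edgeR adjusted p = 0.273).

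The genes of the ubiquitin ligase core had values of both signs. Fancc (-0.42, SE 0.17) did not overlap, and Fanca (-0.37, SE 0.17) and the X-linked Fancb (-0.25, SE 0.16) did. Fancl, the catalytic subunit gene (0.048, SE 0.17), and Fancm, the translocase that anchors the complex to DNA (0.065, SE 0.17), were close to 0 and changed sign when single libraries were left out, to -0.052 for Fancl without WT 3 and -0.050 for Fancm without iKO 4. Fancg, a scaffold subunit gene, measured 11.2, 13.2 and 13.0 CPM in the libraries labelled WT and 14.4, 13.6 and 13.4 CPM in those labelled iKO. It was the 1 gene of the 38 whose libraries labelled iKO all lay above those labelled WT, by a narrow margin (0.14, SE 0.14, edgeR adjusted p = 0.688).

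The 3 genes of structure-selective nucleases, which cut joint molecules and crosslinks, had a median of -0.15, the closest to 0 of the 5 role groups. Mus81 measured 29.4, 23.1 and 26.5 CPM in WT 2, WT 3 and WT 4 and 21.9, 24.8 and 21.8 CPM in iKO 3, iKO 4 and iKO 33 (-0.20, SE 0.14, edgeR adjusted p = 0.544). Its partner gene Eme1 measured 22.3, 15.0 and 21.6 CPM against 16.3, 22.1 and 14.6 CPM (-0.15, SE 0.22, edgeR adjusted p = 0.806). In Eme1 the libraries WT 3, WT 4, iKO 3 and iKO 4 each fell in the range of the other group. The scaffold gene Slx4 measured 24.0, 21.7 and 24.3 CPM against 22.2, 26.2 and 20.03 CPM (-0.032, SE 0.14, edgeR adjusted p = 0.944). No member of this group reached an unadjusted p of 0.05.

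**Figure D3:**
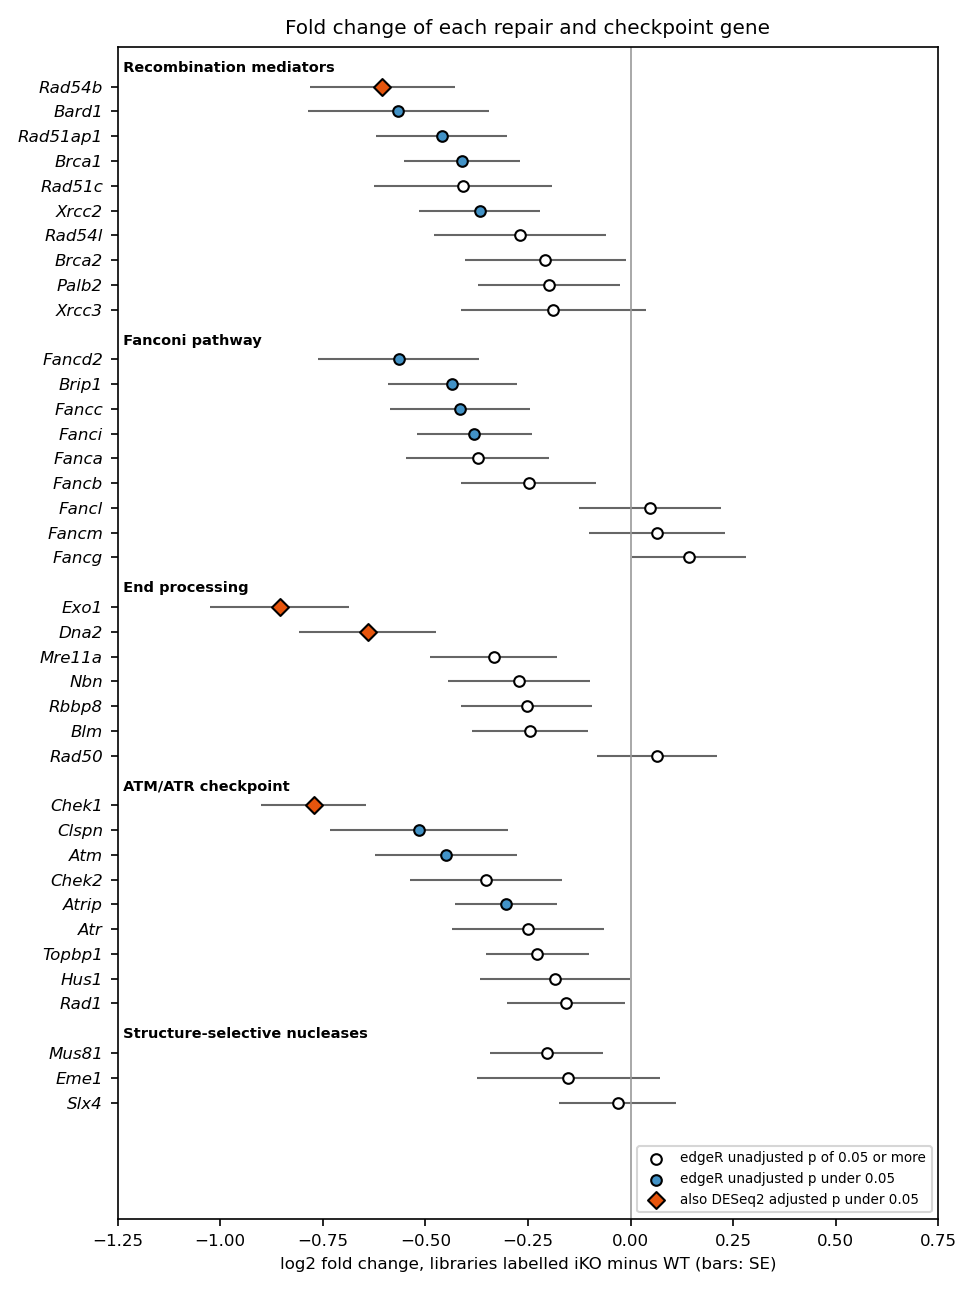
Log2 fold change of each of the 38 genes, libraries labelled iKO minus WT, with bars of 1 SE and genes grouped by role. Exo1 (-0.86), Chek1 (-0.77), Dna2 (-0.64) and Rad54b (-0.60), drawn as diamonds, were called by DESeq2, no gene was called by edgeR after adjustment, and 4 genes lie right of 0.

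The libraries within a group did not behave alike. For 27 of the 38 genes iKO 4 was the highest of the libraries labelled iKO. It lay below every WT library for 17 genes, against 29 for iKO 3 and 32 for iKO 33. Such counts by single library were not made over all tested genes, so they only compare libraries within the 38 genes. Among the libraries labelled WT, WT 4 was the highest for 25 genes and WT 3 the lowest for 21. As a median over the 38 genes of the log2 CPM relative to each gene's mean over the 6 libraries, WT 2, WT 3 and WT 4 stood at 0.17, 0.073 and 0.24, and iKO 3, iKO 4 and iKO 33 at -0.23, 0.020 and -0.22. Over all tested genes the medians lay between 0.0040 and 0.0089 in the 6 libraries. On this median alone iKO 4 was nearer to WT 3 than to the other libraries of its label. Across all tested genes its log2 CPM correlated less with WT 3 (r = 0.946) than with iKO 3 (r = 0.970) or iKO 33 (r = 0.981). With WT 4 the correlation was 0.977. Without iKO 4 the number of genes with no overlap rose from 14 to 26 (16.3% of all tested genes), and without WT 3 it was 22 (18% of all tested genes).

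Lists of replication and mitosis genes are given beside the repair genes. Of 22 replication genes, 21 had negative values (median log2 fold change -0.41), and Mcm6 of the replicative helicase passed in edgeR (-0.81, SE 0.10, adjusted p = 0.0361), while E2f1, the gene of an S phase transcription factor, stood at -0.90 (SE 0.14, edgeR adjusted p = 0.0622). Over the 14 alternatives the adjusted p of E2f1 ran from 8.37e-06 in DESeq2 to 0.240, and it was 0.0469 in edgeR without the filter on low counts. DESeq2 called 7 of the 22 replication genes and 1 of the 15 mitosis genes (Bub1b), all lower. Of all genes that it adjusted, it called 3.15% as lower. The call of Mcm6 was lost whichever library was left out. The replication medians by library were 0.25, 0.022 and 0.30 in WT 2, WT 3 and WT 4, and -0.20, -0.057 and -0.35 in iKO 3, iKO 4 and iKO 33. Of 15 mitosis genes 11 had a negative value (median -0.10), among them Bub1b (-0.56, SE 0.15), while Cenpe stood at 0.73 (SE 0.28). For mitosis genes iKO 4 had the highest library median (0.20) and iKO 33 the lowest (-0.37). The part of replication or of cycling cells in the repair values was not tested.

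**Figure D4:**
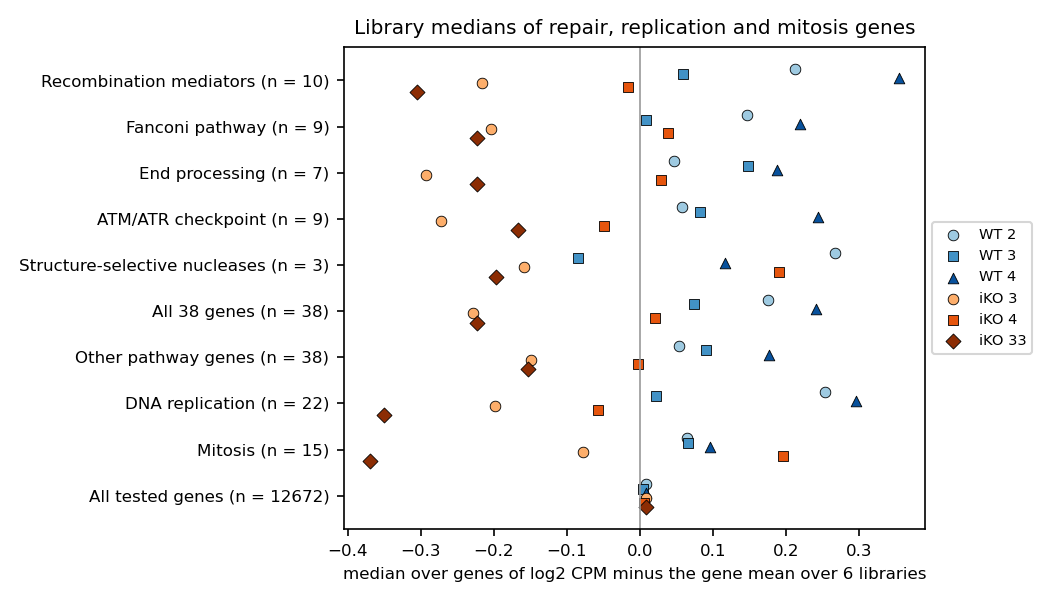
Median over genes of log2 CPM minus each gene's mean over the 6 libraries, for each role group, the other lists and all tested genes, with 1 point per library. For the 38 genes the 3 libraries labelled WT lie at 0.073 to 0.24, iKO 3 at -0.23, iKO 33 at -0.22 and iKO 4 at 0.020.

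A list of 38 further genes of the same pathways was fixed beside them. Of these, 30 had negative values (median log2 fold change -0.23) and 0 passed in edgeR over all genes. At an unadjusted edgeR p under 0.05, 11 were lower and 1 higher, against 7.7% and 7.32% of all tested genes. DESeq2 called 2, both lower, against 3.15% of the genes it adjusted. The groups did not overlap for 12 as lower and 1 as higher, against 11.3% and 10.5% of all tested genes. The genes of this list with the smallest p were Usp1, which removes ubiquitin from FANCD2 (-0.44, SE 0.11), Wee1, the kinase that holds CDK1 inactive (-0.58, SE 0.17), and Ube2t, the Fanconi ubiquitin-conjugating enzyme gene (-0.63, SE 0.19). Rpa1, the largest subunit gene of the single-strand binding complex (-0.31, SE 0.10), and Timeless, a fork protection gene (-0.51, SE 0.16), followed. DESeq2 called Usp1 (adjusted p = 0.0243) and Wee1 (adjusted p = 0.0483). On the positive side, the crosslink nuclease gene Fan1 measured 4.79, 2.18 and 4.58 CPM in WT 2, WT 3 and WT 4 and 6.04, 8.20 and 7.84 CPM in iKO 3, iKO 4 and iKO 33 without overlap (0.95, SE 0.34, edgeR adjusted p = 0.260). Brcc3, a deubiquitinase gene of the BRCA1-A complex (0.42, SE 0.23), Top3a (0.18, SE 0.17), Sfr1 (0.12, SE 0.13) and Rad51d (0.044, SE 0.16) had smaller positive values with overlap.

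Levels per length spread widely over the 38 genes. Over the bases of all annotated exons, the mean of the libraries labelled WT ran from 1.18 CPM per kb for Rad51c to 21.0 CPM per kb for Topbp1, with a median of 4.58. After Topbp1 the highest levels were those of Nbn (12.6), Chek2 (11.7) and Mre11a (10.4 CPM per kb), and the lowest after Rad51c were Fancc (1.25) and Brca2 (1.64 CPM per kb). Of the genes that DESeq2 called, Chek1 (7.59), Exo1 (6.51) and Dna2 (5.53 CPM per kb) lay above the median level and Rad54b (1.77 CPM per kb) below it. The genes sit on 16 chromosomes (mm10), among them Chek1 on chromosome 9 (36708482 to 36727065, minus strand), Exo1 on chromosome 1 (175880581 to 175913489, plus strand), Dna2 on chromosome 10 (62947026 to 62974185, plus strand) and Rad54b on chromosome 4 (11558922 to 11615805, plus strand). In 6 genes at least 10% of the exon bases overlap another gene of the table: Rad54b with Fsbp and Atrip with Trex1 on the same strand, and Rad54l with Lrrc41, Fanca with Zfp276, Fancl with Vrk2 and Fanci with Polg on the other strand. Reads of overlaps on the other strand cannot be told apart where strand is not used. For overlaps on the same strand, strand does not separate the reads. The counts of these 6 genes are uncertain.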

How the data were processed

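Total RNA of 6 keratinocyte samples was made into libraries with the TruSeq RNA v2 kit, per the labels' protocols. TopHat2, HTSeq, DESeq2, DESeq and the build mm10 are named in the submitters' processing notes; the sources used here do not give annotation or strand setting. In the first deposited table are whole-number read counts per gene. Its 5 HTSeq summary rows held 27.4% to 35.5% of a library's counts and entered neither library sizes nor tests. The authors' second deposited table gives a log2 fold change with SE, p-values, a Wald score and a normalised signal, per the file headers.

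Columns were matched to samples by number; the column numbered 33 matches no iKO title and was used as an iKO replicate without a number. No 2 libraries of a group agreed within sampling noise (the lowest chi-square per degree of freedom was 48.6). In R 4.3.3, edgeR 4.0.16 kept genes by filterByExpr (minimum count 10), scaled by TMM and compared the groups by its robust quasi-likelihood F test (glmQLFTest, two-sided), Benjamini-Hochberg at 0.05 over 12672 genes. The SE is the absolute log2 fold change over the square root of F. DESeq2 1.42.0 and limma-voom (limma 3.58.1) were alternatives, with other scaling factors and filters, a replicate block and leaving out each library. Log2 CPM used a prior count of 2. Scripts were tested on simulated data. The smallest count of any of the 38 in a library was 98. Over the 38 genes the median coefficient of variation among libraries was 12.4% (WT) and 14.5% (iKO), and that of Poisson counting alone 3.19% and 3.1%. For Fancc and Fancl in the libraries labelled iKO the spread was no larger than counting error.

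Members, lists and tests were chosen with earlier results of these data known. Given in full are, in each role group, the 3 genes with the smallest p, those called by DESeq2, and the largest positive value; of the other lists, up to 5 in each direction or 2. Bard1, Clspn, Topbp1 and Chek2 were described in more detail after their values were seen. Values of 1 gene of the further pathway list are not reported here. Gene positions and exon lengths come from GENCODE M21 on mm10.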

Additional observations from a re-analysis of the deposited data

How the results depend on the processing

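The count of 0 genes past an adjusted p of 0.05 held under every alternative except DESeq2, which called 4. The count at an unadjusted p (15 lower) ranged from 4 to 16 when each library was left out, and the number without overlap (14) from 15 to 26, partly by construction, since fewer libraries overlap less. The median (-0.29) ranged from -0.40 to -0.27 there. With the replicate number as a block, which could use only the libraries numbered 3 and 4, 11 genes were lower at an unadjusted p (9.1% of all tested genes), 0 passed after adjustment and the median was -0.28; the same 4 libraries without the block, an alternative chosen after seeing the data, gave 4 (3.83% of all tested genes) and -0.27. Differences between libraries 3 and 4 correlated across genes in both groups (r = 0.60), but with 2 shared numbers this is a hint from the data, not the design.

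Direction turned for some single genes. With the block Xrcc3 stood at 0.055, Eme1 at 0.073, Slx4 at 0.070 and Rad50 at -0.038, and in the same libraries without it at 0.060, 0.068, 0.074 and -0.031. When each library was left out, Rad50 ranged from -0.051 to 0.12, Brca2 from -0.32 to 0.015, Fancl from -0.052 to 0.13, Fancm from -0.050 to 0.18, Slx4 from -0.14 to 0.054 and Rad51d from -0.098 to 0.14. No scaling alternative changed the direction of any of the 38 genes, and none moved the median of all tested genes by over 0.1.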
